A study of Mus musculus with 2 samples.

Results

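The genes described here are the chromatin modifiers, chromatin remodellers and nuclear receptor coregulators of sorted luminal cells of the mouse mammary gland. They were taken by symbol: all rows of the deposited table named Kdm, Kmt, Setd, Hdac, Sirt, Kat, Ncoa, Ncor, Smarca to Smarce, Chd, Brd or Arid with a family number, plus Ep300 and Crebbp. The rule used no expression value and found 107 genes of 16906. Of these, 102 had a mean of at least 1 FPKM (fragments per kilobase of transcript length, relative to all fragments) over the libraries, as did 11667 genes in all. These 102 are called the measured members.

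RNA was sequenced in 1 library per group. The CKO library came from C57BL/6 mice that carried K8-CreERT2 together with miR-200c/141-flox/flox: a Cre recombinase that tamoxifen activates, driven by the keratin 8 promoter, deletes the floxed miR-200c/141 cluster. The Ctrl library came from C57BL/6 mice with miR-200c/141-flox/flox and no Cre. Mice of both groups were 8 weeks old and received tamoxifen, and the labels give the interval after it as 4 weeks in one field and 3 days in another. About 20000 luminal cells were sorted, and the number of mice behind a library is not given. Since CKO alone carried the Cre driver, Cre and deletion cannot be told apart, and with no replicate no difference below was checked against the spread between animals.

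Histones carry acetyl and methyl groups that enzymes add (acetyltransferases, methyltransferases) and remove (deacetylases, demethylases), and bromodomain proteins bind the acetylated form. Remodellers of the SWI/SNF, ISWI and CHD families spend ATP to move or evict nucleosomes. Nuclear receptors such as estrogen receptor alpha recruit these enzymes through coregulators: the NCOA proteins bring acetyltransferases such as p300 to a receptor bound by hormone, and corepressors such as NCOR1 bring the deacetylase HDAC3 to a receptor without it. In luminal cells these proteins act on the genes that estrogen and progesterone control.

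The deleted microRNAs recognise messenger RNAs through their seed, bases 2 to 8 of the mature strand. Both mature strands are shown since the seed matches below derive from them, in RefSeq's sequence on GRCm38.p6 with the seed in capitals. They lie on the minus strand at chr6:124718324-124718346 and chr6:124717917-124717938.
mmu-miR-200c-3p: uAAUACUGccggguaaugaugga
mmu-miR-141-3p: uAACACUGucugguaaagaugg

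Of the measured members, 37 held at least 1 seed match, CAGTATT or CAGTGTT, in their longest annotated 3' UTR (36.3%), as did 31.4% of the 11449 measured genes with a UTR. Over any annotated UTR of a gene the count was 38 (37.3%), beside 34.0% of these genes. CAGTATT, the match to miR-200c-3p, stood in 24 members (23.5%), beside 16.1% of all, and CAGTGTT, the match to miR-141-3p, in 22 (21.6%), beside 21.9%. The UTRs searched were longer in members, with a median of 1566.5 bases against 1334 over all, and the part of this in the shares was not tested. Only the transcript's own strand was searched. Kdm7a held the most, 5, followed by Ncoa2 with 4 and Arid5b and Chd2 with 3 each. The sites of Ncoa2, a coactivator with a low ratio below, and of Ncoa7, the member with the highest ratio, are shown with the match in capitals. Those of Ncoa2 lie on the minus strand of GRCm38 in its last exon, 22 of 22, at chr1:13141494-13141523, chr1:13140316-13140345, chr1:13140254-13140283 and chr1:13139366-13139395. That of Ncoa7 lies on the minus strand in exon 15 of 15 at chr10:30645668-30645697.
Ncoa2, first miR-200c-3p match: aatgaggtacttCAGTATTaaattagatat
Ncoa2, second miR-200c-3p match: ctcccctgccatCAGTATTgctcacgctct
Ncoa2, first miR-141-3p match: agaacatagaatCAGTGTTctcttagatga
Ncoa2, second miR-141-3p match: ggagaaagcttaCAGTGTTtcaggttgtga
Ncoa7, miR-200c-3p match: ctctatttaaaaCAGTATTgtctgaacagg

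The depth, as the deposited p-values imply it, was about 11400000 reads in CKO and 12500000 in Ctrl. Luminal identity showed in both libraries: all 14 luminal markers were measured, with a summed level of 20997 FPKM in CKO and 16412 FPKM in Ctrl. Most of that gap was Krt18, the only luminal marker counted as higher by the rule given below, at 10398.36 FPKM in CKO and 6606.79 FPKM in Ctrl. The luminal list went both ways, with a median log2 ratio of 0.04 and counting intervals wholly above 0 in 6 markers and wholly below 0 in 6, among them Pgr with a log2 ratio of -0.44 and Prlr with -0.30. All 12 basal markers were listed, and 7 of the 11 measured were at least 1.5-fold higher in CKO with 1 lower, Trp63. Their summed level was 315.42 FPKM in CKO and 176.69 FPKM in Ctrl. Markers of lymphocytes were near 0, with none of 5 measured and sums of 1.16 FPKM in CKO and 1.24 FPKM in Ctrl. Markers of the other cell types were low beside the luminal ones, and none of the myeloid, fibroblast, endothelial or adipocyte markers with a mean of at least 1 FPKM was past 1.5-fold with its interval. Of 8 myeloid markers 6 were measured, and all 8 summed to 21.72 FPKM in CKO and 18.24 FPKM in Ctrl. Of 6 fibroblast markers 4 were measured, and all 6 summed to 42.56 FPKM in CKO and 40.29 FPKM in Ctrl. The fibroblast list went both ways: Dcn stood at 30.74 FPKM in CKO and 25.57 FPKM in Ctrl, while Col1a2 had a log2 ratio of -0.35. Under the 1 FPKM minimum, Pdgfra stood at 0.31 FPKM in CKO and 1.05 FPKM in Ctrl and Lum at 0.38 FPKM in CKO and 1.16 FPKM in Ctrl, both past 1.5-fold lower in CKO with intervals that exclude a ratio of 1. All 5 endothelial markers were measured, summing to 34.15 FPKM in CKO and 31.43 FPKM in Ctrl. Of 4 adipocyte markers 2 were listed and 1 was measured, and they summed to 44.24 FPKM in CKO and 33.53 FPKM in Ctrl. Nearly all of that sum was Fabp4, at 44.19 FPKM in CKO and 33.36 FPKM in Ctrl. Plin1 stood at 0.05 FPKM in CKO and 0.17 FPKM in Ctrl. The part of the basal difference in the ratios of the chromatin genes was not tested. In RNA from pooled cells, fewer cells of a type and less RNA per cell cannot be told apart.

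The chromatin and coregulator genes had ratios near 1 between the libraries, and the ratios went with the deposited length. That length is of the size of a transcript and not of the gene's span on the chromosome. For Hdac4 it is 8165 bases, the longest annotated coding transcript has 8100, and the gene lies at chr1:91928779-92195702. In some other members the deposited length and that transcript differ more. Arid1b has 7033 and 11325 bases, Smarca2 3737 and 5921, and Hdac2 2001 and 3250. Some run the other way, such as Brd9 with 2942 and 2430. Levels per length and length classes depend on the form taken. A measured gene was counted as higher or lower in CKO when its ratio was at least 1.5-fold, on the scale of FPKM + 0.5, and the 95% counting interval of its estimated reads held no ratio of 1. Intervals are given on the log2 scale, in brackets after the log2 ratio. By this rule 1 of 102 members was lower (0.98%), beside 3.04% of all measured genes, and 0 were higher, beside 2.29%. The lower member was Setd5. In 91 members the log2 ratio lay within 0.32 of 0 (89.2%), as it did in 80.2% of all measured genes.

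Below 0 lay 76 of the 102 log2 ratios of CKO over Ctrl (74.5%), beside 54.8% of all measured genes, and the median log2 ratio was -0.12 over members and -0.03 over all. The counting interval lay wholly below 0 in 44 members (43.1%), beside 23.6% of all genes, and wholly above 0 in 7 (6.86%), beside 16.5%. Members are long by this measure. Their median length in the table was 5003 bases, from 1474 to 19834, against 2776 bases over all measured genes. All 11667 measured genes were put in 10 classes of equal size by length. The median log2 ratio went down with each longer class, with 0.11 in the shortest and -0.20 in the longest. The longest class, 6003 bases and over, held 40 members, and there the median log2 ratio was -0.20 in members and -0.20 in all 1167 genes.

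Set against the median of all genes in its own length class, 51 members lay above and 51 below, and the median of these differences was -0.00 on the log2 scale. In the longest class 39 of 40 members lay below 0 (97.5%), as did 84.8% of the genes there. Their interval lay wholly below 0 in 31 (77.5%), beside 62.5% of that class. Longer genes also have more estimated reads, which are computed with length, and with them tighter intervals. The median of estimated reads summed over both libraries was 420 in the shortest class and 1733 in the longest. Across genes, Spearman's rho of length and log2 ratio was -0.35 over all measured genes and -0.61 over the 102 members, a description of values that share the same libraries. Whether RNA quality or library preparation goes with this trend was not tested. The plot of ratio against length shows the members scattered about the line of all genes.

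**Figure D1:**
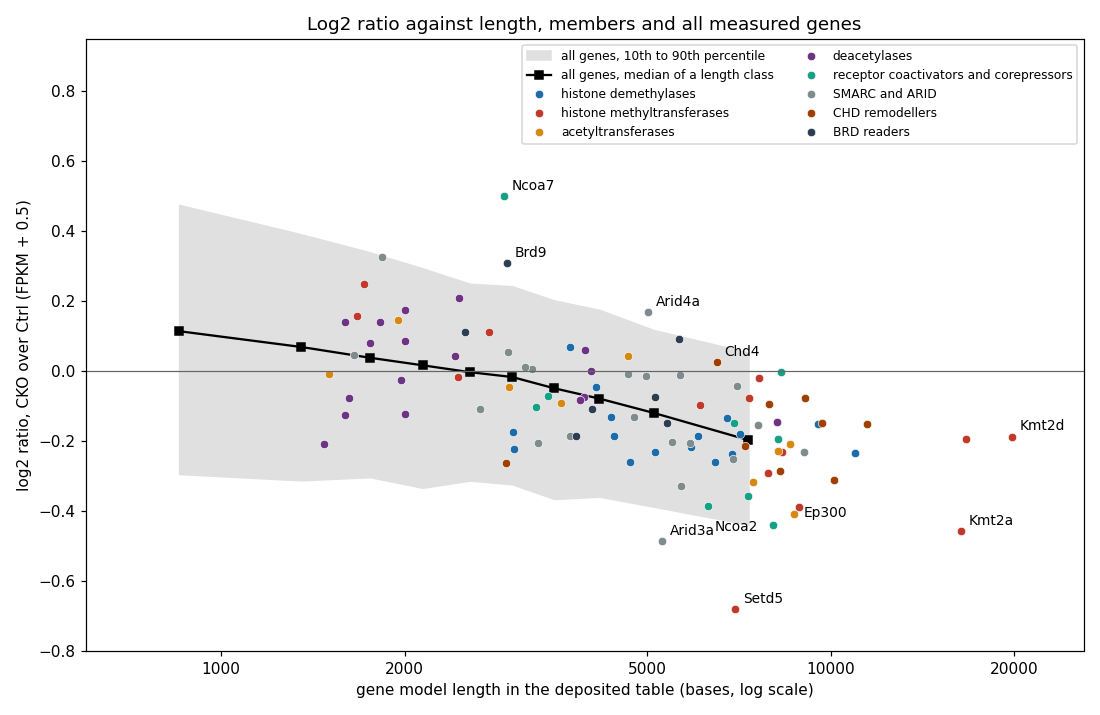
The horizontal axis is the length of the gene model in bases (log scale), and the vertical axis the log2 ratio of CKO over Ctrl (FPKM + 0.5). Coloured points are the 102 measured members by role, black squares the medians of all measured genes in 10 length classes (drawn at the median length of each class), and the grey band the 10th to 90th percentiles of those genes. The medians are 0.11 in the shortest class and -0.20 in the longest, 51 members lie above and 51 below them, and Setd5 and Ncoa7 lie farthest away.

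Levels spanned a wide range, and FPKM values are compared between genes since they are per length. Over the measured members the median was 14.78 FPKM in CKO and 17.12 FPKM in Ctrl. The most abundant was Brd2, a bromodomain reader of acetylated histones, at 131.88 FPKM in CKO and 142.10 FPKM in Ctrl. After it came Chd4, the ATPase of the NuRD repressor complex, at 92.82 FPKM in CKO and 91.08 FPKM in Ctrl. The deacetylase gene Hdac1 stood at 81.09 FPKM in CKO and 82.53 FPKM in Ctrl, and the deacetylase gene Hdac5 at 62.98 FPKM in CKO and 62.91 FPKM in Ctrl. Kdm1a, a demethylase gene described below, completes the 5 most abundant. Under 1 FPKM on average were 5 members: Chd5, Smarca1, Hdac9, Arid3c and Kdm4d. None of these 5 exceeded 0.20 FPKM in either library. Smarca1 had 8 estimated reads in CKO and 1 in Ctrl, Hdac9 had 3 in CKO and 15 in Ctrl, and Arid3c had 0 in CKO and 3 in Ctrl.

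Length changes how a level reads. Kmt2d, the longest member at 19834 bases, had 2866 estimated reads in CKO and 3583 in Ctrl, while Hdac1 with its 1971 bases had 1829 in CKO and 2033 in Ctrl. Per length, Kmt2d stood at 12.63 FPKM in CKO and 14.45 FPKM in Ctrl, far below Hdac1. Together the 107 genes took 1.14% of the length-weighted signal in CKO and 1.27% in Ctrl.

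**Figure D2:**
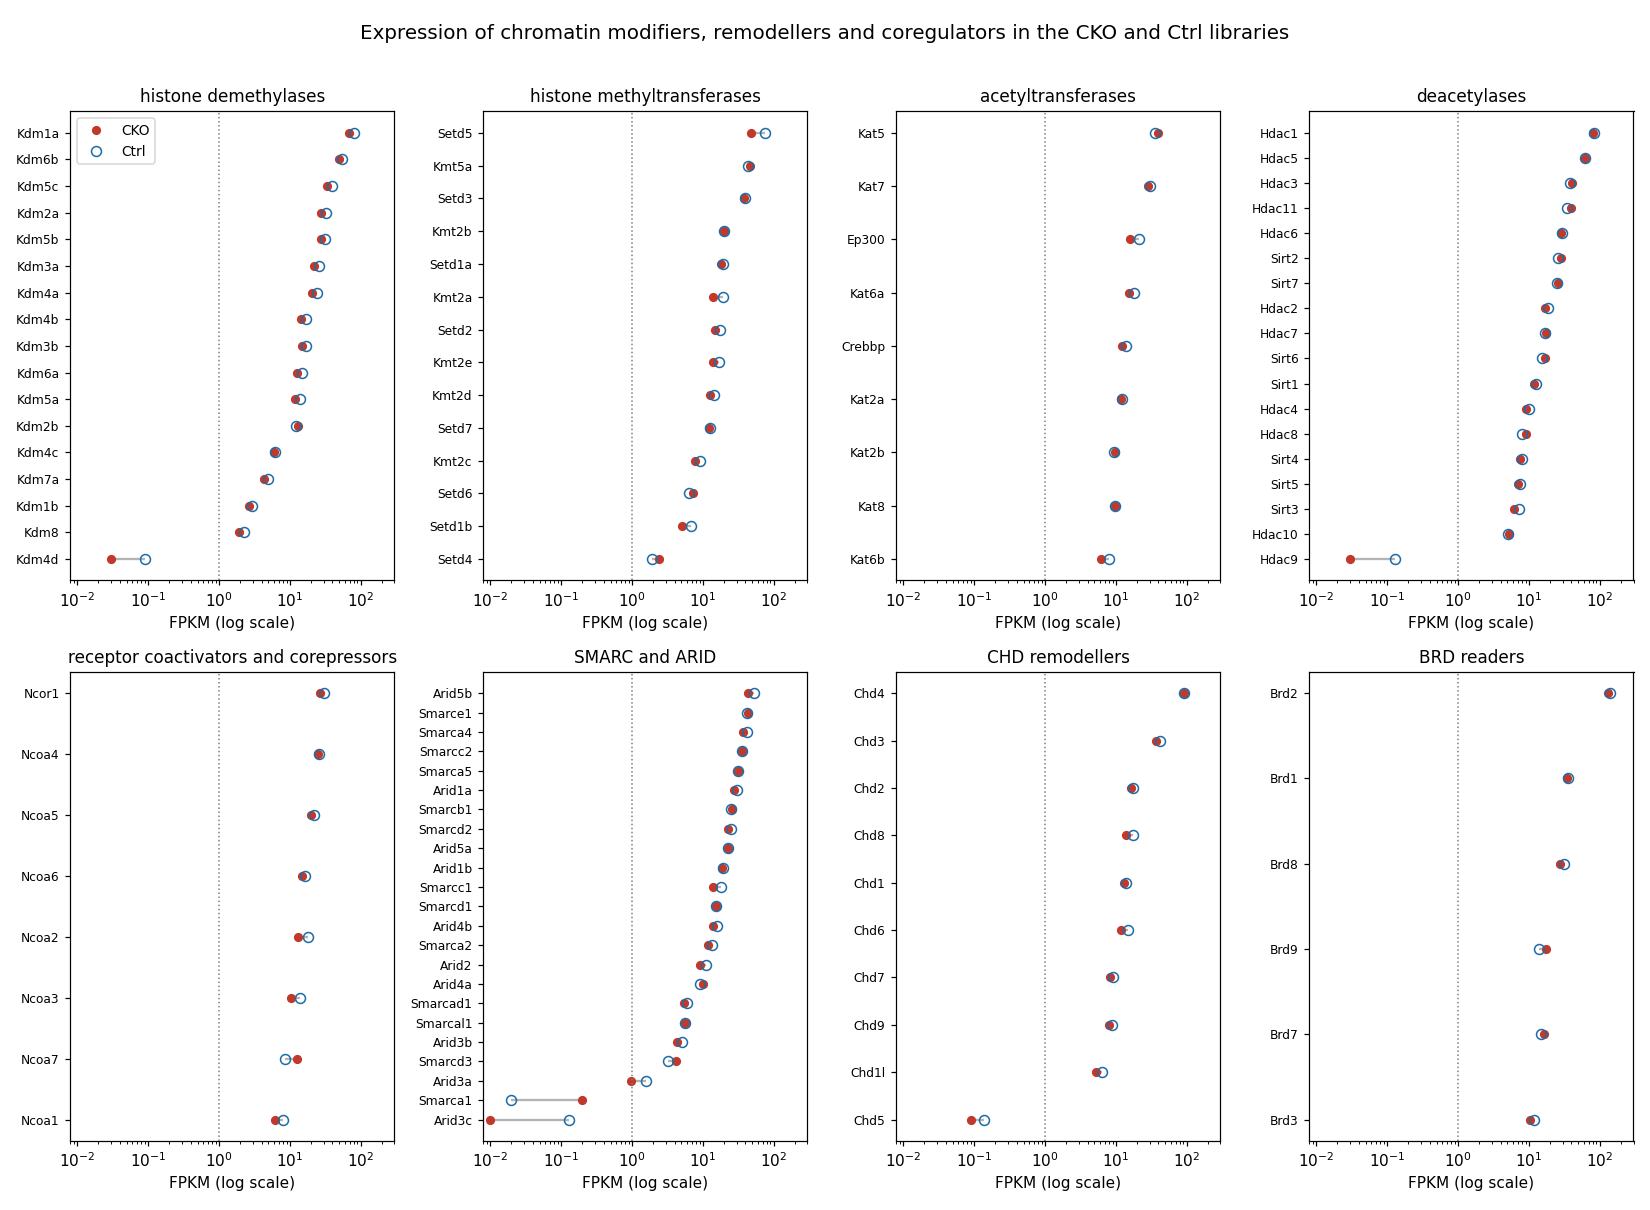
Each panel shows members of 1 role, with FPKM on a log axis. Filled points are the CKO library and open circles the Ctrl library, and the dotted line marks 1 FPKM. All but 5 of the genes shown lie right of that line by their mean, and for most the CKO and Ctrl points touch, with Setd5 and Ncoa7 among those that stand apart.

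Beside the members named by rule, others are given below that were chosen after their values were seen. In 15 measured members over 5% of exon bases are shared with another annotated gene, most in Setd1a with 52.3% and Smarcd3 with 48.2%. Among the genes described, Smarcd1 and Sirt3 share 12.7% each, Brd2 9.8%, Kdm2b 8.7% and Chd8 5.8%. Kat5, Hdac11, Hdac4 and Chd2 are given with their shares below. The shares are of all annotated exon bases on either strand. The values of these genes are uncertain to an extent that was not measured.

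Roles were given by symbol, with Kmt and Setd genes taken as histone methyltransferases, and the activity of each product was not checked. This group held the member with the lowest ratio. Setd5, which encodes a SET domain protein of chromatin, stood at 47.35 FPKM in CKO and 76.13 FPKM in Ctrl, from 3782 estimated reads in CKO and 6642 in Ctrl. The log2 ratio was -0.68, and its counting interval ran from -0.74 to -0.63. The gene (Entrez 72895) lies at chr6:113077262-113153432 of GRCm38.p6 and is 6980 bases long in the table. Among the 1167 genes of the longest class, 19 had a ratio as low, Setd5 included. Taken relative to the median of that class its log2 ratio was -0.48, which is under 1.5-fold, so the call is lost on that scale. The authors' deposited table gives Setd5 a false discovery rate of 3.68e-133 in their test of the reads of these libraries, which compares the libraries and not the conditions. Its 3' UTR, 1965 bases in the longest annotated form, holds no match to either seed.

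The other methyltransferase genes followed their length more closely. Kmt2a, which encodes a methyltransferase of histone H3 lysine 4, stood at 14.12 FPKM in CKO and 19.56 FPKM in Ctrl. Its log2 ratio was -0.46 (-0.54 to -0.40), and 108 of the 1167 genes in the longest class were as low. Setd1b, an enzyme gene for the same residue, stood at 5.02 FPKM in CKO and 6.73 FPKM in Ctrl, a log2 ratio of -0.39 (-0.59 to -0.26). Kmt2c and Kmt2d, whose products methylate the same residue at enhancers, each had a log2 ratio of -0.19 and lay within 0.01 of the median of their class. Setd2, for the enzyme that trimethylates H3 lysine 36, stood at 14.82 FPKM in CKO and 17.47 FPKM in Ctrl, 0.03 below that median. Kmt5a, whose product methylates histone H4 lysine 20, ran the other way at 46.97 FPKM in CKO and 43.45 FPKM in Ctrl, a log2 ratio of 0.11 (0.01 to 0.22). Of all 14 genes 11 had log2 ratios below 0, beside 54.8% of all measured genes, and 8 lay above and 6 below the medians for their length.

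The receptor coactivator genes of the p160 family all had log2 ratios below 0, short of 1.5-fold. Ncoa2 stood at 13.14 FPKM in CKO and 17.99 FPKM in Ctrl, from 1209 reads in CKO and 1808 in Ctrl. Ncoa3, amplified in some human breast cancers, stood at 10.54 FPKM in CKO and 13.92 FPKM in Ctrl, from 758 reads in CKO and 1094 in Ctrl. Ncoa1 was the least abundant, at 6.18 FPKM in CKO and 8.06 FPKM in Ctrl, from 518 reads in CKO and 737 in Ctrl. The log2 ratios were -0.44 for Ncoa2 (-0.56 to -0.35), -0.39 for Ncoa3 (-0.54 to -0.27) and -0.36 for Ncoa1 (-0.55 to -0.22), and these intervals overlap. Each of the 3 lay below the median of the longest class, at -0.24 for Ncoa2, -0.19 for Ncoa3 and -0.16 for Ncoa1 relative to it. In that class 117 genes were as low as Ncoa2, 181 as low as Ncoa3 and 208 as low as Ncoa1.

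Ncoa7 was the member with the highest ratio. It encodes a protein that binds estrogen receptor alpha and carries a TLDc domain, and its short form in human cells is induced by interferon. It stood at 12.52 FPKM in CKO and 8.70 FPKM in Ctrl, from 417 reads in CKO and 317 in Ctrl, a log2 ratio of 0.50 (0.31 to 0.74). That is short of 1.5-fold, and 38 of the 1167 genes in its length class were as high. The table gives Ncoa7 (Entrez 211329, chr10:30645582-30807700) a length of 2911 bases, while its longest annotated coding transcript has 7043. Its level per length, its length class and its rank there depend on which form was counted. The authors' deposited table gives it a false discovery rate of 0.000137 between the libraries.

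The remaining coregulators lay nearer to 0. Ncor1, the corepressor gene, stood at 26.99 FPKM in CKO and 30.92 FPKM in Ctrl. Its log2 ratio was -0.19 (-0.27 to -0.12), which lay at the median for its length. Hdac3, the deacetylase gene of the same complex, stood at 40.76 FPKM in CKO and 38.39 FPKM in Ctrl, a log2 ratio of 0.09 (-0.04 to 0.22). Ncoa6, for a coactivator found with methyltransferase complexes, had a log2 ratio of -0.15, Ncoa5 -0.10, and Ncoa4, whose product also carries ferritin to lysosomes, -0.07.

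**Figure D3:**
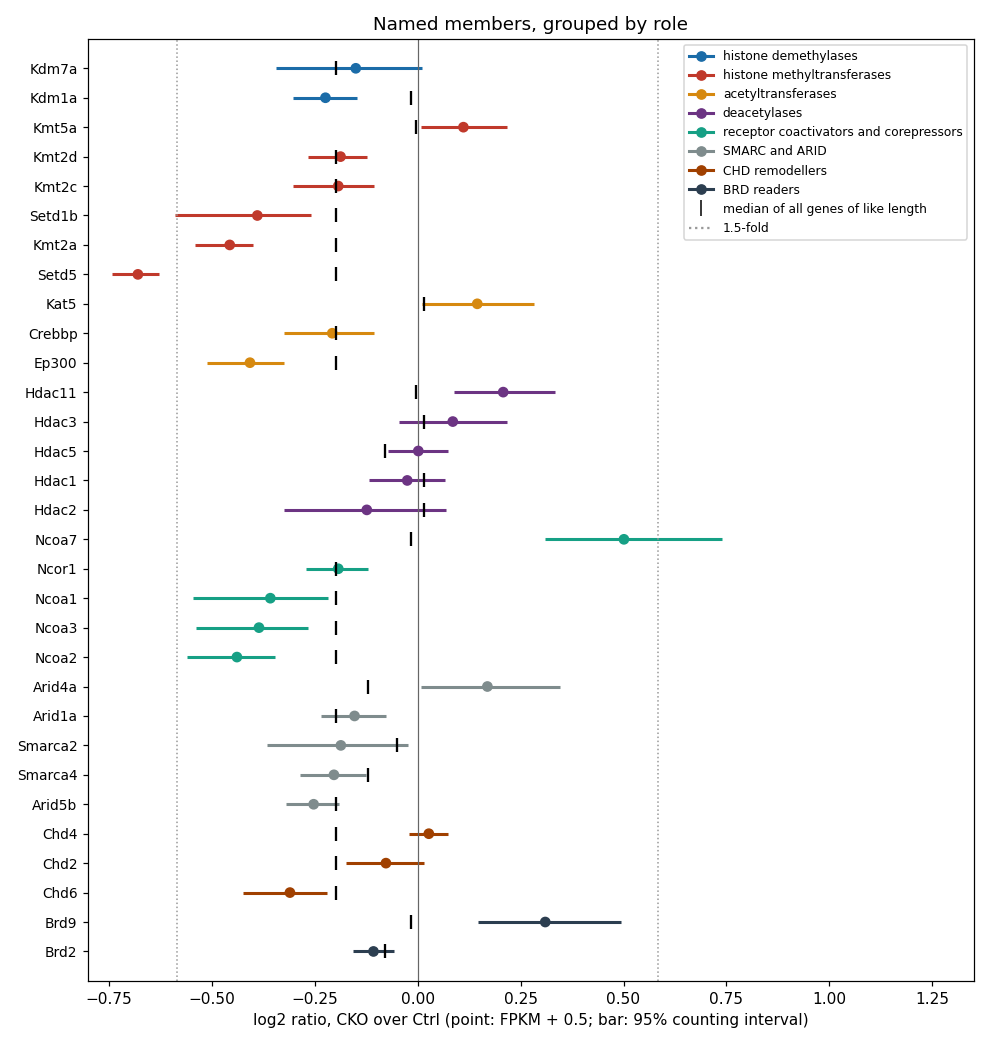
Points are log2 ratios of CKO over Ctrl (FPKM + 0.5) of members named by rule, coloured by role, and bars are 95% counting intervals of the read ratio. Black ticks mark the median of all measured genes of like length, and dotted lines mark 1.5-fold. Setd5 at -0.68 alone lies past a dotted line, Ncoa7 is highest at 0.50, and Kmt2c, Kmt2d, Crebbp and Ncor1 sit on their ticks.

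Among acetyltransferases the paralogs Ep300 and Crebbp, whose products are the coactivators p300 and CBP, stood apart in ratio. Ep300 stood at 15.69 FPKM in CKO and 20.97 FPKM in Ctrl, and Crebbp at 12.18 FPKM in CKO and 14.14 FPKM in Ctrl. The log2 ratio was -0.41 for Ep300 (-0.51 to -0.32) and -0.21 for Crebbp (-0.33 to -0.11), and the ends of these intervals just overlap. Their lengths of 8720 and 8590 bases are near each other, and relative to the median of the longest class Ep300 lay at -0.21 and Crebbp at -0.01. Kat6b, an acetyltransferase gene of the MYST family, had a log2 ratio of -0.32 (-0.50 to -0.18) and its paralog Kat6a -0.23 (-0.33 to -0.13). Kat5, for the enzyme TIP60, stood at 39.91 FPKM in CKO and 36.05 FPKM in Ctrl, a log2 ratio of 0.14 (0.01 to 0.28). Exons of Kat5 share 12.1% of their bases with another annotated gene, Rnaseh2c, so some of its reads may be uncertain. Of 9 acetyltransferases, 2 lay above and 7 below the medians for their length.

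Histone demethylases had the lowest median log2 ratio of the roles, -0.19, and 15 of 16 measured members lay below 0, beside 54.8% of all measured genes. Kdm1a, whose product LSD1 demethylates H3 lysine 4, stood at 69.07 FPKM in CKO and 80.75 FPKM in Ctrl, a log2 ratio of -0.22 (-0.30 to -0.15). At 3020 bases Kdm1a is short for this group, and it stood at -0.21 relative to the median for its length, where 206 of 1167 genes were as low. Kdm3a, which acts on H3 lysine 9, stood at 21.66 FPKM in CKO and 26.03 FPKM in Ctrl, a log2 ratio of -0.26 (-0.38 to -0.15). The H3 lysine 4 demethylase genes Kdm5a, Kdm5b and Kdm5c had log2 ratios of -0.23, -0.19 and -0.24, all within 0.04 of the median for their length. The H3 lysine 27 demethylase genes Kdm6a and Kdm6b stood at -0.22 and -0.13. Kdm2b, which acts on H3 lysine 36 and guides a Polycomb complex to CpG islands, was the only one above 0, at 12.87 FPKM in CKO and 12.25 FPKM in Ctrl. For their length 6 of the 16 lay above the median and 10 below.

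Deacetylase genes are short by the deposited length, with a median of 2003 bases, and their median log2 ratio was 0.00. Of 17 measured, 8 lay below 0 and 9 above, while 54.8% of all measured genes lay below 0. Hdac11, for the only class IV enzyme, stood at 39.98 FPKM in CKO and 34.55 FPKM in Ctrl, a log2 ratio of 0.21 (0.09 to 0.33). Exons of Hdac11 share 17.9% of their bases with other annotated genes, Gm14573 and Gm44002. Hdac1 and Hdac2, close paralogs that share repressor complexes, had log2 ratios of -0.03 and -0.12, and the intervals of both hold 0. Hdac1 was the more abundant, at 81.09 FPKM in CKO beside 17.18 for Hdac2, and 82.53 FPKM in Ctrl beside 18.76. The 7 sirtuin genes, for deacetylases that use NAD+, had intervals that all hold 0, with log2 ratios from -0.21 for the mitochondrial Sirt3 to 0.14 for Sirt2 and Sirt6. Of all measured genes, 16.5% had an interval wholly above 0 and 23.6% wholly below, and the rest held 0. Some sirtuin intervals are wide, as for Sirt3 with 104 estimated reads in CKO and 133 in Ctrl. Hdac4, the longest measured one at 8165 bases, had the group's only interval below 0, -0.29 to -0.02, and lay 0.05 above the median for its length. In Hdac4, 22.4% of exon bases are shared with Gm26720.

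Subunits of SWI/SNF and the other SMARC and ARID genes had a median log2 ratio of -0.11 over 21 measured, with 11 above and 10 below the medians for their length. Of the genes for its alternative ATPases, Smarca4 stood at 36.97 FPKM in CKO and 42.64 FPKM in Ctrl, and Smarca2 at 11.89 FPKM in CKO and 13.60 FPKM in Ctrl. Smarca4 was the more abundant in both libraries, and the log2 ratios were -0.20 for Smarca4 and -0.19 for Smarca2. The scaffold paralogs had unlike ratios: Smarcc1 stood at 14.16 FPKM in CKO and 17.92 FPKM in Ctrl, and Smarcc2 at 35.83 FPKM in CKO and 36.16 FPKM in Ctrl. Their log2 ratios were -0.33 (-0.46 to -0.22) for Smarcc1 and -0.01 (-0.10 to 0.07) for Smarcc2, whose intervals do not overlap, and the genes are 5684 and 4984 bases long. The core subunit genes Smarcb1, Smarcd1 and Smarce1 had log2 ratios of 0.05, 0.01 and 0.05. Smarca5, the ATPase gene of ISWI remodellers, stood at 31.75 FPKM in CKO and 31.91 FPKM in Ctrl.

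Arid1a, a subunit gene of canonical SWI/SNF and often mutated in human cancers, stood at 27.16 FPKM in CKO and 30.26 FPKM in Ctrl. Its log2 ratio of -0.15 (-0.23 to -0.08) lay 0.04 above the median for its length, and that of its paralog Arid1b, -0.04 (-0.15 to 0.06), lay 0.15 above. Arid4a, for a subunit of the Sin3 deacetylase complex, stood at 10.24 FPKM in CKO and 9.05 FPKM in Ctrl, 0.29 above the median for its length, while its paralog Arid4b lay 0.09 below. Arid5b, for a DNA-binding partner of a demethylase, stood at 43.71 FPKM in CKO and 52.17 FPKM in Ctrl, a log2 ratio of -0.25 (-0.32 to -0.19). The log2 read ratio implied by its deposited p-value was -0.16, outside that interval. The median for its length, -0.20, lies between these values. Arid3a was the weakest measured member, at 0.97 FPKM in CKO and 1.56 FPKM in Ctrl from 59 reads in CKO and 103 in Ctrl. Its log2 ratio of -0.49 depends on the added 0.5 FPKM, its interval runs from -1.16 to -0.20, and with 0.1 FPKM added it was counted as lower.

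The CHD remodeller genes, with a median length of 8251 bases, had a median log2 ratio of -0.15, and 8 of 9 measured lay below 0. Of all measured genes 54.8% lay below 0, and of those in the longest class 84.8%. For their length 5 of the 9 lay above the median and 4 below. Chd4 was the 1 above 0, at 0.03 (-0.02 to 0.07), 0.22 above the median for its length, where 146 of 1167 genes were as high. Its paralog Chd3 stood at 36.55 FPKM in CKO and 42.51 FPKM in Ctrl, a log2 ratio of -0.22 (-0.29 to -0.15) that lay 0.02 below that median. Chd6 stood at 11.80 FPKM in CKO and 14.75 FPKM in Ctrl, at -0.31 (-0.42 to -0.22), the lowest of the group. Chd8, a gene linked to autism in humans, was near it at -0.29 (-0.40 to -0.19). Chd2 had a log2 ratio of -0.08, and 19.3% of its exon bases are shared with other annotated genes.

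Bromodomain reader genes had a median log2 ratio of -0.07 over 7 measured. Brd9, a subunit gene of a SWI/SNF form that lacks ARID subunits, stood at 17.45 FPKM in CKO and 13.98 FPKM in Ctrl. Its log2 ratio was 0.31 (0.15 to 0.49), next after Ncoa7 by the lower bound, and 74 of 1167 genes of like length were as high. Brd7, for a subunit of another SWI/SNF form, had a log2 ratio of 0.11 (-0.07 to 0.30). The abundant Brd2 lay at -0.11 (-0.16 to -0.06), 0.03 below the median for its length, and Brd8 at -0.19 (-0.30 to -0.08).

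A lower threshold of 0.32 on the log2 scale, with the same interval, counted 9 members as lower (8.82%), beside 10.5% of all measured genes, and 1 as higher (0.98%), beside 6.33%. The 9 were Setd5, Kmt2a, Ncoa2, Ep300, Ncoa3, Setd1b, Ncoa1, Smarcc1 and Arid3a, the shortest of which has 5291 bases, and the 1 was Ncoa7. The authors' deposited table calls 0 of the 107 members up and 0 down, beside 0.615% and 0.639% of all 16906 genes. At a false discovery rate of at most 0.001 in that table, with no minimum fold, 28 members were lower (26.2%), beside 6.27% of all genes, and 1 was higher (0.935%), beside 4.32%.

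Members with a seed match had the lower median ratio. Among the 37 that hold one the median was -0.18 on the log2 scale, and among the 65 that hold none -0.08. Those with a match are also longer, with a median of 6057 bases against 4046. Relative to the medians for their length the values were -0.01 with a match and 0.01 without, and 17 of the 37 lay above. Over all measured genes with a UTR these were -0.00 for 3599 with a match and 0.00 for 7850 without. Kdm7a, with the most matches, stood at 4.33 FPKM in CKO and 4.86 FPKM in Ctrl, a log2 ratio of -0.15 (-0.34 to 0.01), 0.05 above the median for its length. Ncoa2 with its 4 printed sites lay at -0.44, and Ncoa7 with its 1 printed site at 0.50. The longest annotated UTR of a gene need not belong to the form that was counted. For Ncoa7 the UTR searched has 4048 bases, more than its whole deposited length of 2911, so the form counted may lack the site. A match describes letters in a UTR and says nothing of binding.

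**Figure D4:**
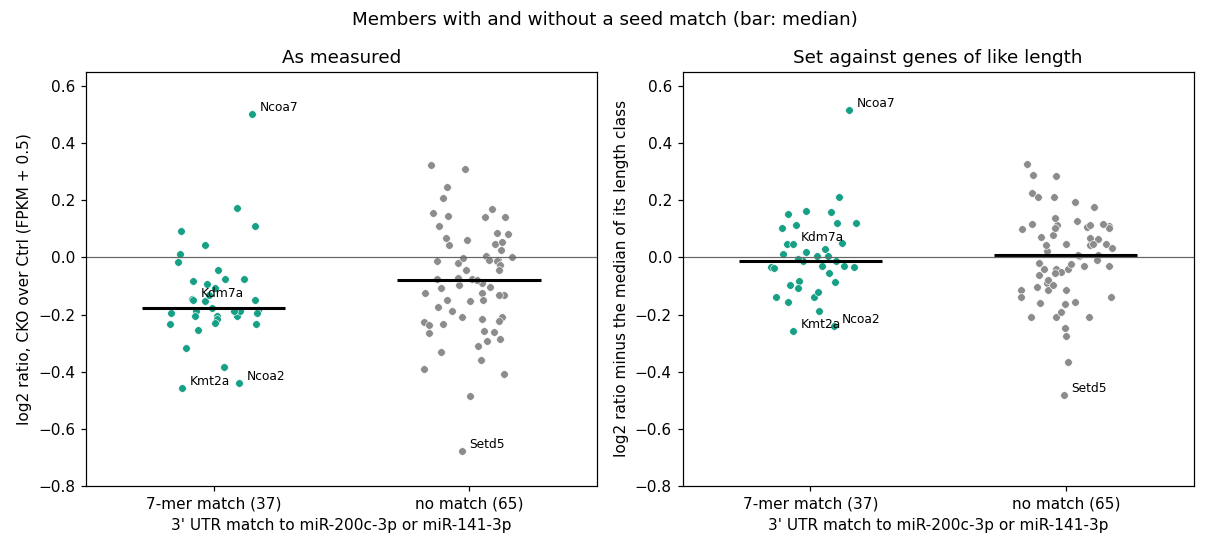
Points are the 102 measured members, with or without a 7-mer match to miR-200c-3p or miR-141-3p in the longest annotated 3' UTR, and bars are medians. The left panel shows the log2 ratio of CKO over Ctrl, with medians of -0.18 and -0.08. The right panel shows that ratio minus the median of all genes of like length, where the medians are -0.01 and 0.01.

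Of 82 genes on a list of chromatin genes outside the symbol rule 72 were measured. By the 1.5-fold rule 0 were counted as higher, beside 2.29% of all measured genes, and 0 as lower, beside 3.04%. The counting interval lay wholly above 0 in 14, beside 16.5% of all measured genes, and wholly below 0 in 23, beside 23.6%. The median log2 ratio was -0.02 at a median length of 3854 bases, and 0.003 relative to the medians for their length. The lowest by interval were Ash1l, a methyltransferase gene, at 15.34 FPKM in CKO and 20.36 FPKM in Ctrl, and the remodeller genes Bptf and Srcap, with log2 ratios of -0.33 and -0.32. The highest were Jmjd6, for a hydroxylase, at 21.34 FPKM in CKO and 15.93 FPKM in Ctrl, and Bcl7c and Rbbp7, with log2 ratios of 0.24 and 0.22. Of 35 listed coregulators outside the rule 33 were measured, with 0 counted either way. Their intervals lay wholly above 0 in 7 and wholly below 0 in 11, beside the same shares of 16.5% and 23.6%. The median log2 ratio was -0.00 at a median length of 3720 bases, and 0.02 relative to the medians for their length. Among them Rcor1, the partner of LSD1, stood at 12.27 FPKM in CKO and 16.11 FPKM in Ctrl, and the Mediator genes Med14 and Med13 had log2 ratios of -0.33 and -0.26. Cited2, which binds p300 and CBP, stood at 105.03 FPKM in CKO and 83.29 FPKM in Ctrl. Tbl1xr1, a subunit gene of the NCOR complex, had a log2 ratio of 0.32, and Bcl3 of 0.31.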

How the data were processed

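RNA of sorted luminal cells was sequenced in 1 CKO and 1 Ctrl library. Per the submitters' processing notes, the tools were HISAT, Bowtie2 and RSEM on mm10, and versions are not given in the sources used here. The authors deposited 1 expression value per gene and library without a unit. These deposited values were read as FPKM: their products with gene length (in kilobases) added up to 999909.4 in CKO and 999609.4 in Ctrl. Values have 2 decimals and do not go under 0.01. The authors' log2 fold change is the plain log2 ratio of CKO to Ctrl values. Their deposited p-values and false discovery rates compare 1 library's reads with the other's.

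The log2 ratio used here adds 0.5 FPKM. Reads of a gene were estimated as its FPKM times its length, scaled to a library total. The totals came from the deposited p-values. Genes at the floor in Ctrl gave a CKO share of 0.477924 of the reads, with whole read numbers within 0.01 for 391 of 395 genes. A fit over 10827 genes gave the totals, with a median absolute difference of 0.0591 in log10 p between fitted and deposited p-values. Intervals are exact conditional binomial (Clopper-Pearson) at 95%, computed without the added 0.5 FPKM. They cover the counting error of reads only. Since PCR copies are not independent molecules, they may be too narrow for the counting error of molecules. No test across samples was possible, and no p-value for a comparison was computed. Length classes are 10 equal groups of the measured genes by the length column. UTRs are of GENCODE M21 on GRCm38, the build mm10 names, joined on the Entrez identifier, and UTRs under 30 bases were left out. Coordinates are RefSeq's on GRCm38.p6, found for all 107 members. Whether counting used strand is not given, so shared exons may mix reads.

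Named members were the 8 lowest and the highest by the interval bound nearest to 0 (7 had an interval above 0), the 5 most abundant, a list fixed by name and the 4 with the most seed matches, and 3 of each sign from each outside list; others were chosen after their values were seen. Some members enter the counts and medians and are not reported by name here. Members and lists were chosen with earlier results of these data known. Alternatives were other pseudocounts, minima, folds, scalings and no division by length. Python 3.11.15, numpy 2.4.6, scipy 1.17.1 and pandas 2.3.3 were used.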

Additional observations from a re-analysis of the deposited data

How the results depend on the processing

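No paired analysis was possible because each group has 1 library, and no library could be left out. The median log2 ratio of the members, -0.12, became -0.11 with a minimum of 5 FPKM, -0.10 when centred on the median of all genes and -6.3e-05 when centred on the median of the length class, where the construction takes out the length trend. The count of lower members, 1, became 2 (Setd5 and Arid3a) with 0.1 FPKM added or without division by length, 0 centred on the length class, 0 at 2-fold and 9 at a log2 threshold of 0.32. The count of higher members, 0, became 1 at that threshold. Setd5 had log2 ratios from -0.72 to -0.48. The difference between the medians of the longest and the shortest length class, -0.31, was -0.32 with 0.1 FPKM added, -0.30 with 1 FPKM and -0.24 with no minimum; these alternatives were chosen after seeing the data. Of the values of named members under alternatives 175 stayed within their counting interval and 23 did not, 22 of these under centring on length. The other 1 was Arid5b, under the ratio implied by its deposited p-value. The read ratio implied by the deposited p-value differed by over 0.1 on the log2 scale from the FPKM ratio for 3 of 102 members and for 11.2% of measured genes.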
